A study of Mus musculus with 20 samples.

Results

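The mitochondrial ribosomal proteins were taken as the rows of the count table that carried a protein-coding mouse symbol beginning with Mrpl or Mrps followed by a digit, pseudogene names excluded, with at least 10 counts in at least 10 libraries. All 78 such symbols met the rule and all 78 were tested, out of 55416 rows in the table and 14471 genes tested. By their symbols, 49 belong to the large subunit (Mrpl) and 29 to the small subunit (Mrps), although the products of Mrps18a and Mrps30 are known to sit in the large subunit. The 5 names marked as pseudogenes reached at most 8 counts in any library and were not members.

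The libraries came from the quadriceps of male wild-type C57BL/6J mice aged 26 to 28 months. Each mouse was fasted for 4 h and then received a single intramuscular injection of 50 µL. This was either 0.9% saline (control, n = 10) or a secretome product (secretome, n = 10), and the mouse was killed 3 h after it. The product is the material that cultured pluripotent stem cells release into their medium. According to the paper, the cells were human embryonic stem cells, partly differentiated, and the product was concentrated and then given in saline. Total RNA depleted of ribosomal RNA was sequenced from bulk muscle. A difference in bulk tissue can come from the number of cells of a type or from the RNA each cell holds, and these cannot be told apart here.

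The mitochondrial ribosome is built in the matrix of the mitochondrion from 2 ribosomal RNAs encoded by mitochondrial DNA and from proteins that are all encoded in the nucleus, made in the cytosol and imported. It translates the messenger RNAs of the mitochondrial genome, which encode membrane subunits of the respiratory chain and of ATP synthase. The small subunit decodes the messenger, and the large subunit forms the peptide bond and holds the exit tunnel. Part of its proteins descend from the bacterial ribosome, and others have no bacterial counterpart. In skeletal muscle the respiratory chain supplies ATP for contraction, so these genes are widely used as a readout of mitochondrial biogenesis.

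The promoters of several members hold binding motifs of the factors known to drive nuclear genes for mitochondrial proteins. RefSeq gave 75 windows of the 250 bases before the start for 69 of the 78 members. The NRF1 core CGCNTGCGC, searched on both strands, was in 13 of the 75 windows (17.3%), against 5.16% of the windows of all genes and 10.3% of those of the genes tested. Overlapping matches in a window were counted as 1 window. The ETS motif CCGGAAG, which GABP and related factors bind, was in 18 windows (24.0%), against 6.91% of all and 12.8% of tested. The YY1 motif AAGATGGCG was in 2 windows (2.67%, Mrpl36 and Mrps11), against 0.606% of all and 1.14% of tested. The median GC content of the members' windows, 58.4%, was near the 59.6% of the genes tested and above the 52.4% of all genes. A motif match is a description of the letters and not a measured binding site. Of the members with an NRF1 motif, Mrpl12 has the highest level of the large subunit and Mrpl17 the smallest p between the treatments, and their windows show where the motif lies. Mrps9 and Mrpl41, the members with a window and the smallest p among those higher and lower after secretome, are printed beside them. The windows are given on the strand of the gene in build GRCm38.p6, with the motif in capitals. Mrpl12 lies on the plus strand at chr11:120484387-120484636, with its NRF1 motif starting 80 bases before the gene's start. Mrpl17 lies on the minus strand at chr7:105811088-105811337 and holds an ETS motif starting 237 bases and NRF1 motifs starting 49 and 11 bases before the start. Mrps9 (plus strand, chr1:42850983-42851232) and Mrpl41 (minus strand, chr2:24975099-24975348) hold none of the 3 motifs in these windows.
Mrpl12: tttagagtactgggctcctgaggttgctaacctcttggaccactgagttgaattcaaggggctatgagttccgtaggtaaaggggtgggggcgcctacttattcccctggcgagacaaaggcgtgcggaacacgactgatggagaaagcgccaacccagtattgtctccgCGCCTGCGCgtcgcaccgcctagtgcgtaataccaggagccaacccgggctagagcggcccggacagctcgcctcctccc
Mrpl17: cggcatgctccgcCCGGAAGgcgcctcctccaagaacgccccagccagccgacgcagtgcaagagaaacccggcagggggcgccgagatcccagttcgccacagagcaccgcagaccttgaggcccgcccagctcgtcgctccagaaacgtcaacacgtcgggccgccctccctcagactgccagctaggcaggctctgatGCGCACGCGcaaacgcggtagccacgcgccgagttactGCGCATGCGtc
Mrps9: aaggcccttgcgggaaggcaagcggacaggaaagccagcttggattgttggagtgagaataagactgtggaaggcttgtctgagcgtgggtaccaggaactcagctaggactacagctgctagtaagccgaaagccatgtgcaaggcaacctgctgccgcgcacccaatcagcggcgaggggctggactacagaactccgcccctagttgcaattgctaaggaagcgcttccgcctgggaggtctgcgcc
Mrpl41: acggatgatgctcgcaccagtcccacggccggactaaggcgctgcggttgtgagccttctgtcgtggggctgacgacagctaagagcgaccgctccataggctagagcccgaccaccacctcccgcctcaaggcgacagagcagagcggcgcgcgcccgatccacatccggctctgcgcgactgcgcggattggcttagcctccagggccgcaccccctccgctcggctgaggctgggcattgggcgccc

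The NRF1 motif was in 11 of the 48 large subunit windows and in 2 of the 27 small subunit windows, while the ETS motif was in 12 and 6 of them. The 18 members with an ETS motif had a median log2 fold change (secretome over control) of -0.06 and the 51 without one -0.01. For the 13 members with an NRF1 motif and the 56 without one, the medians were -0.04 and -0.03.

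The libraries held 13286983 to 22987237 counts, of which the 78 members took 0.134% (control replicate 8) to 0.252% (control replicate 2), or 22881 to 36774 counts. The share of counts on Ttn, which encodes the sarcomere protein titin, followed the library number of the table: 7.02% to 11.03% in libraries 1 to 5 (control replicates 1 to 5), 16.4% to 21.1% in libraries 6 to 15 (control replicates 6 to 10 and secretome replicates 1 to 5), and 14.2% to 14.7% in libraries 16 to 20 (secretome replicates 6 to 10). What the ranges stand for is not given in the sources used here, so each comparison was also made within libraries 6 to 15, which hold both treatments. Control replicate 2 had the lowest total, the lowest Ttn share and the highest summed level of the members. Leaving it out moved the log2 fold change of 22 of the 36 named members by over 1.5 times or in sign. Values near 0 pass that ratio with a small shift, as for Mrps25, which went from 0.027 to 0.0015. The same count was not made for the other libraries or over all genes, so whether 22 is unusual was not tested. The labelled tissue was checked by 6 myofiber markers, which summed to 68272 to 124254 CPM (counts scaled to a common, TMM-adjusted library size).

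Across the 20 libraries, the members were expressed above the average gene of the muscle. Per kilobase of exon, the median member stood at 6.74 CPM per kb, higher than 74.96% of the genes tested. The large subunit members had a median of 8.63 and the small subunit members of 5.43 CPM per kb. In the large subunit the highest levels per kb of exon were those of Mrpl12 (36.9), Mrpl14 (26.3) and Mrpl2 (25.72), with Mrpl34 (25.69) next, and in the small subunit those of Mrps21 (57.5), Mrps28 (24.4) and Mrps23 (23.2). Mrpl12 encodes the protein of the mobile stalk that recruits translation factors, and Mrpl2 and Mrpl14 encode conserved core proteins of the large subunit. The lowest levels were those of Mrps35 (1.48), Mrps25 (1.77), Mrpl53 (1.8) and Mrpl32 (1.962). The order depended on the length used: Mrpl42 stood at 18.8 CPM per kb of all its exons and at 104 per kb of its longest protein-coding transcript, and Mrpl33 at 5.84 and 89.4.

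After a single secretome injection, none of the 78 mRNAs passed a 5% false discovery rate against saline in edgeR, a rate that 1 of the 14471 genes tested (0.00691%) passed. DESeq2 also called 0 members, against 213 of the 17982 genes it gave an adjusted p. Voom with sample quality weights called 0 members, against 3 of 14471 genes. At an unadjusted p under 0.05, 6 members were lower (background 9.21% of genes tested) and 4 were higher (background 6.52%), which is 12.8% of the members against 15.7% of all genes. The share of members lower on average, 45 of 78 or 57.7%, was near the 55.9% of all genes, and 33 members were higher on average, against 44.1% of all genes. The log2 fold changes ran from -0.49 to 0.30 with a median of -0.03, the same as the median of all genes tested, and 68 of the 78 members lay within 0.25 of 0. The median standard error was 0.114 on the log2 scale, and no member reached 0.5 in either direction. No member had control and secretome levels that did not overlap, against 0.0138% of genes lower and 0.0346% higher.

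The scaling moved these counts. With library totals alone, which moved the median of all genes to -0.16, 15 members were lower (background 19.4%) and 1 was higher (background 1.44%) at an unadjusted p under 0.05, and the median of the members was also -0.16. With trends on GC content and transcript length removed from each library, 2 were lower (background 5.77%) and 5 higher (background 9.4%), and the median of the members turned to 0.09 while that of all genes was 0.02. Without control replicate 2 the median of the members was 0.0028, with 3 lower (background 7.52%) and 2 higher (background 5.21%). Without secretome replicate 9, the library with the highest members' level in its group, 10 were lower (background 9.23%) and 3 higher (background 6.7%).

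**Figure D1:**
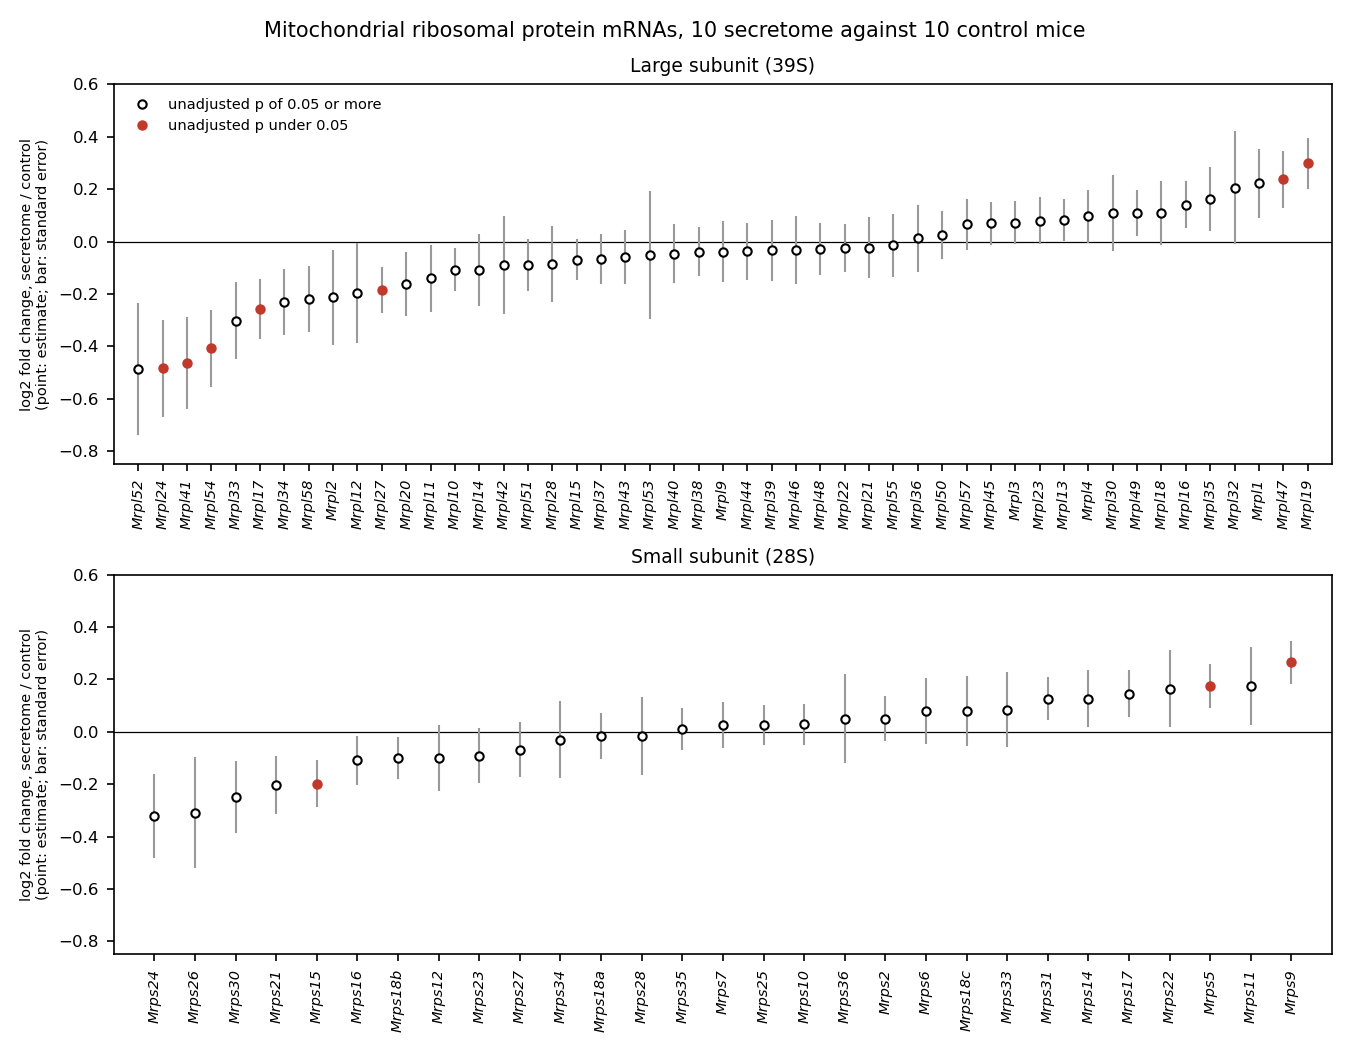
Log2 fold change of each mitochondrial ribosomal protein mRNA, secretome over control, with its standard error (n = 10 per group), large subunit above and small subunit below, each sorted by value. Filled points mark the 10 members with an unadjusted edgeR p under 0.05, and no member lies beyond 0.5 in either direction.

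The members with the smallest p included 2 that were higher in the secretome group and encode proteins conserved from bacteria. Mrps9, which encodes a protein of the small subunit head, ranged from 11.2 to 17.4 CPM with a median of 14.6 in control mice and from 15.3 to 19.5 with a median of 17.1 in secretome mice. All 10 secretome mice lay above the control median, and the groups overlapped between 15.3 and 17.4. Secretome over control gave a log2 fold change of 0.27 (SE 0.083), with an unadjusted p of 0.00392 and an adjusted p of 0.166 in edgeR, and the adjusted p ran from 0.0617 (DESeq2) to 0.789 over 30 fits. Mrpl19, a large subunit protein, ranged from 9.84 to 17.1 CPM (median 12.1) in control and from 14.3 to 18.1 (median 14.9) in secretome mice. Again all 10 secretome mice were above the control median, with overlap in the upper control values. Its log2 fold change was 0.30 (SE 0.098, edgeR p 0.00570, adjusted p 0.180).

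A further 3 leading members, all of the large subunit, were lower in the secretome group. Mrpl54, one of the proteins without a bacterial counterpart, ranged from 12.2 to 29.5 CPM (median 19.9) in control and from 9.36 to 19.8 (median 14.9) in secretome mice. All 10 secretome mice lay below the control median. Its log2 fold change was -0.41 (SE 0.147, edgeR p 0.0108, adjusted p 0.205). Mrpl41, also without a bacterial counterpart, ranged from 8.24 to 26.6 CPM (median 12.3) in control and from 7.74 to 11.8 (median 10.4) in secretome mice. Every secretome mouse was again under the control median, and the highest control values, 26.6 and 22.8 CPM, were those of control replicates 2 and 3. The difference on the log2 scale was -0.46 (SE 0.176, edgeR p 0.0147, adjusted p 0.224), and -0.32 without control replicate 2. Mrpl24, a conserved protein that binds the large subunit RNA, ranged from 19.04 to 69.6 CPM (median 29.3) in control and from 20.3 to 32.9 (median 23.4) in secretome mice. Its 2 highest values, 69.6 and 53.5 CPM, were also those of control replicates 2 and 3, and only 1 secretome mouse lay above the control median. The fitted log2 fold change was -0.48 (SE 0.185, edgeR p 0.0153, adjusted p 0.226), and -0.31 without control replicate 2. The largest difference of all, -0.49 for Mrpl52, had an SE of 0.252 and an unadjusted p of 0.0673. Mrpl52, Mrpl27, Mrpl34, Mrpl42 and Mrpl33 are named outside the rule for named members, after their values were seen.

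**Figure D2:**
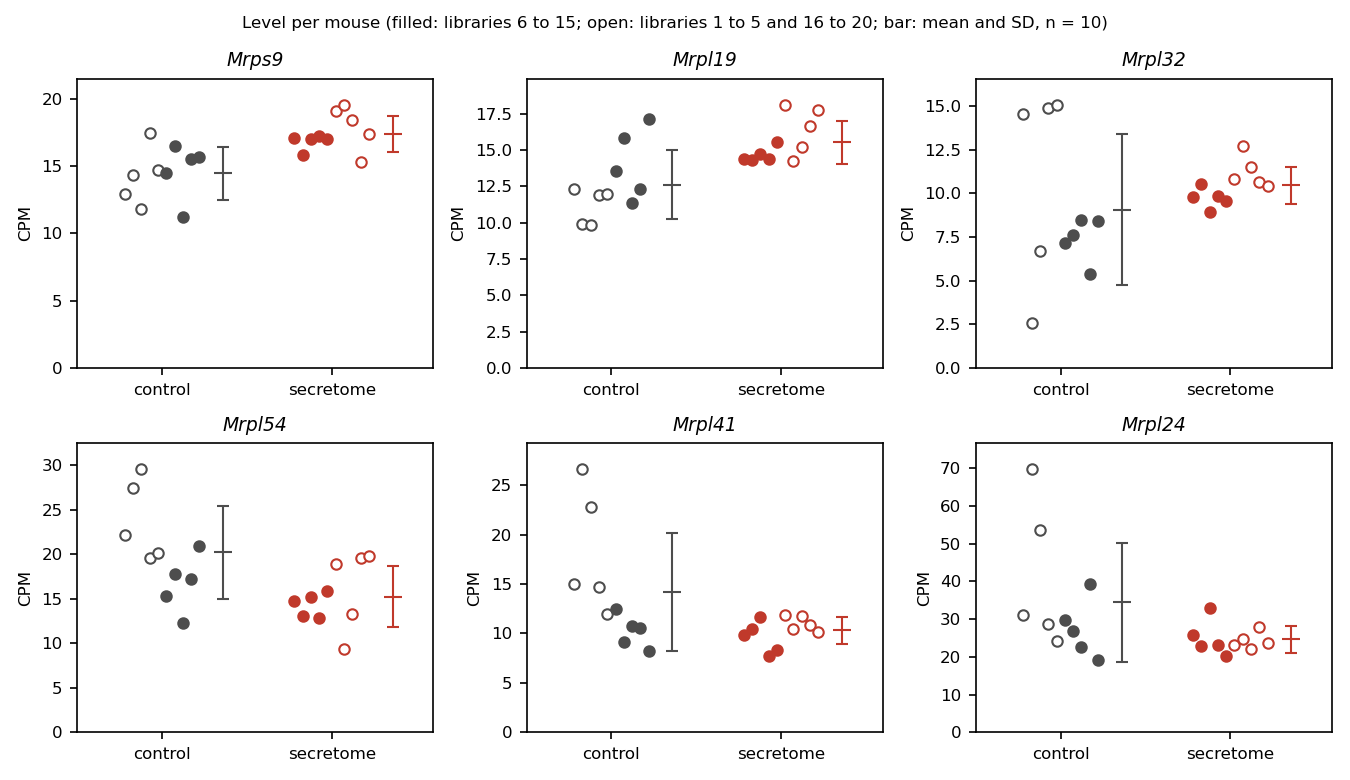
CPM of 6 members in each mouse (vertical axes from 0), with the mean and SD of 10 mice at the right of each group. Filled points are libraries 6 to 15 and open points libraries 1 to 5 (control) and 16 to 20 (secretome); for Mrpl41 and Mrpl24 the 2 highest values are open control points, and for Mrpl32 the 3 highest and the lowest are.

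The other members under an unadjusted p of 0.05 were small differences. Mrpl17 (-0.26, p 0.0366), Mrps15 (-0.20, p 0.0394) and Mrpl27 (-0.18, p 0.0474), all with bacterial counterparts, were lower. Mrpl47, at the exit of the peptide tunnel (0.24, p 0.0369), and Mrps5, in the decoding subunit (0.17, p 0.0445), were higher, and all 10 secretome mice were above the control median for Mrps5. Adjusted p in edgeR ran from 0.287 to 0.312 for these 5. Mrpl17 stood at -0.16 without control replicate 2.

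Members with known special roles showed no difference past the threshold. In the stalk, Mrpl12 ranged from 41.3 to 130 CPM (median 49.5) in control and from 39.8 to 82.1 (median 49.1) in secretome mice. The medians were alike, and the control value of 130 CPM was that of replicate 2. Its log2 fold change was -0.20 (SE 0.190) with all mice and 0.0014 without control replicate 2. Its stalk partners Mrpl10 and Mrpl11 were at -0.11 (SE 0.082) and -0.14 (SE 0.126). Mrpl3, next to the peptide-bond centre, was at 0.07 (SE 0.082), Mrpl44, which has a ribonuclease fold, at -0.04 (SE 0.108), and Mrpl58, which frees peptides from stalled ribosomes, at -0.22 (SE 0.126), or -0.12 without control replicate 2. In the small subunit, Mrps12, which shapes decoding accuracy, was at -0.10 (SE 0.126), Mrps16 at -0.11 (SE 0.095) and Mrps22, a protein with no bacterial counterpart, at 0.16 (SE 0.148).

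Some members are related by descent or by place. Of the 3 relatives of bacterial S18, Mrps18a was at -0.02 (SE 0.088), Mrps18b at -0.10 (SE 0.080) and Mrps18c at 0.08 (SE 0.135). Only Mrps18c was counted among the members with a bacterial counterpart, and Mrps18a and Mrps18b among those without one. Mrps30, which sits in the large subunit despite its name, was at -0.25 (SE 0.136, p 0.0795), or -0.13 without control replicate 2. Of the members of highest level per kb in their subunit, Mrps21 was at -0.20, Mrpl14 at -0.11, Mrpl2 at -0.21, Mrpl34 at -0.23 (SE 0.126), Mrps28 at -0.02 and Mrps23 at -0.09, and those of lowest level were at 0.01 (Mrps35), 0.03 (Mrps25) and -0.05 (Mrpl53). Without control replicate 2, Mrpl2 stood at -0.025, Mrpl14 at -0.041, Mrps23 at -0.00067, Mrps28 at 0.043 and Mrpl53 at 0.072.

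Large against small subunit gave a small difference in location. The large subunit members had a median log2 fold change of -0.04, with 32 lower (65.3%) and 17 higher. The small subunit members had a median of 0.02, with 13 lower (44.8%) and 16 higher. All genes tested had a median of -0.03, with 55.9% lower, so the large subunit stood near the value of all genes. With library totals alone the medians were -0.17 and -0.10, and with GC and length trends removed they were 0.08 and 0.10. The median of all genes also moved, to -0.16 and 0.02 in these scalings. The sign of both subunit medians thus depended on the scaling, while the large subunit median was the lower one in all 3. Counting Mrps18a and Mrps30 with the large subunit gave medians of -0.04 (51 members) and 0.03 (27 members). Leaving out 1 mouse at a time moved the large subunit median from -0.072 (without secretome replicate 9) to -0.015 (without control replicate 2) and the small subunit median from 0.0043 (without secretome replicate 9) to 0.036 (without control replicate 9). No test was made between the subunits, since members measured in the same mice are not replicates.

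Per mouse, the summed level of the 78 members was 1741 ± 156 CPM (SD, n = 10) in control and 1671 ± 171 (SD, n = 10) in secretome mice. The control mice ran from 1513 to 2083 CPM with a median of 1733, and the secretome mice from 1482 to 1985 with a median of 1625, so the groups overlapped over most of their range. The ratio of the summed large to the summed small subunit levels was 2.12 ± 0.066 in control and 2.08 ± 0.061 in secretome mice. By range of library number the sum was 1837 CPM in control 1 to 5, 1646 in control 6 to 10, 1550 in secretome 1 to 5 and 1793 in secretome 6 to 10. The ratio followed the same order, at 2.17, 2.06, 2.04 and 2.11. Within a treatment the 2 ranges thus differed by 191 CPM (control) and 243 CPM (secretome), more than the 69.8 CPM between the treatments.

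**Figure D3:**
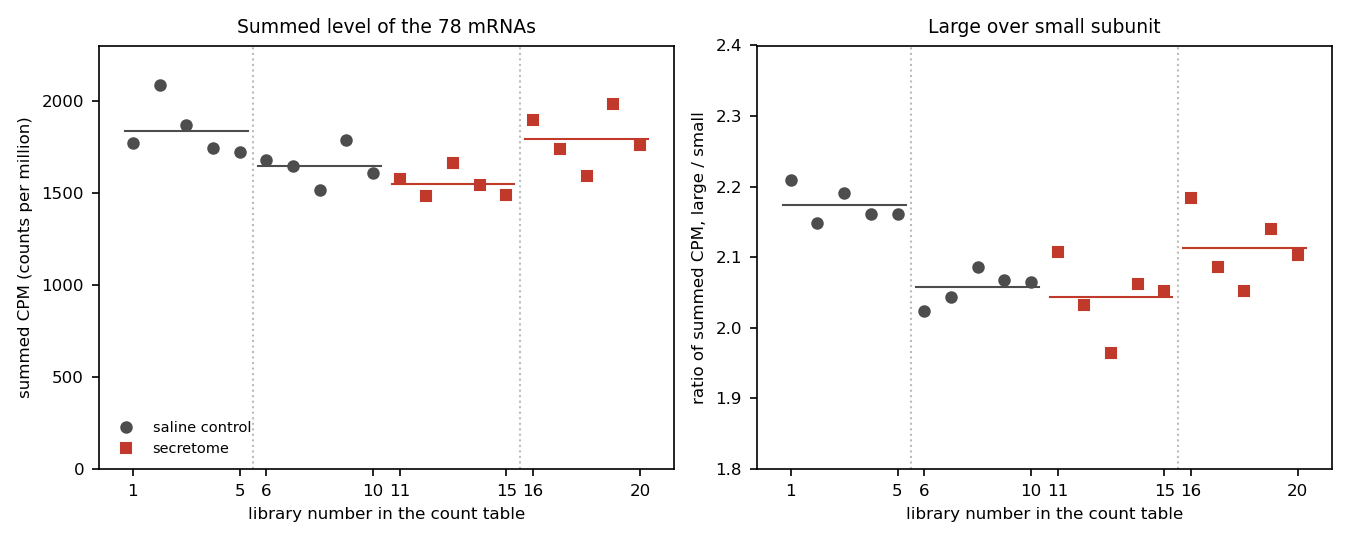
Summed CPM of the 78 members (left, axis from 0) and the ratio of summed large to summed small subunit CPM (right, axis from 1.8 to 2.4) in each mouse against library number; horizontal lines are means of 5 mice and dotted lines part the ranges 1 to 5, 6 to 15 and 16 to 20. The mean sums of the 2 control sets, 1837 and 1646 CPM, and of the 2 secretome sets, 1550 and 1793 CPM, cross over.

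Members with and without a bacterial counterpart were also compared. The 46 members with one had a median log2 fold change of -0.00054 with 23 lower (50.0%) and 23 higher. The 31 without one had a median of -0.04 with 22 lower (71.0%) and 9 higher. All genes tested had a median of -0.03, with 55.9% lower, and no test was made between the 2 classes. Mrps36 was not assigned, since its protein is now placed in another mitochondrial complex. Without the 4 members that have a named pseudogene the median stayed at -0.03 (74 members). In the annotation, 33 members share exon bases with another gene, 8 on the same strand and 28 on the opposite strand, and the strand setting of the counting is not given in the sources used here. These include Mrpl19 with Gcfc2, Mrpl24 with Rrnad1 and Mrpl47 with Ndufb5, whose values are uncertain to that extent. A gene on the other strand starts within 1000 bases of the start of 29 members. Of the 25 such neighbours that were tested, 11 had a smaller log2 fold change than the member, sign aside, and 14 a larger one. For Mrpl54 (-0.41) the neighbour Apba3 was at -0.03, for Mrpl41 (-0.46) Pnpla7 was at -0.18, and for Mrpl47 (0.24) Ndufb5 was at -0.15.

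Within libraries 6 to 15, where the ranges do not differ between treatments, 0 members passed the false discovery rate in edgeR (0.0% of genes tested). DESeq2 called 0 members, against 37 of 15390 genes, and voom 0, against 3 of 14471 genes. At an unadjusted p under 0.05, 5 members were lower (background 4.88%) and 2 higher (background 5.02%). The members' median was -0.06 against -0.01 for all genes, with 53 lower (67.9%, against 52.0% of all genes) and 25 higher. The large subunit median was -0.07 and the small subunit median -0.02. With GC and length trends removed the members' median was -0.01, with 42 lower and 36 higher. The count of lower members depended on single libraries, at 0 without secretome replicate 2 (background 3.75%), 1 without secretome replicate 4 (background 3.52%) and 16 without secretome replicate 3 (background 7.29%).

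Mrpl32 had the smallest p in this range. It encodes a large subunit protein that must be cut by a mitochondrial protease before the subunit is assembled. The control values were 7.15, 7.59, 8.46, 5.38 and 8.42 CPM and the secretome values 9.78, 10.5, 8.96, 9.86 and 9.54 CPM. The groups did not overlap, as for 0.815% of all genes in this direction. The log2 fold change was 0.41 (SE 0.142), with an adjusted p of 0.449 in edgeR. In the other mice the control values were 14.5, 2.55, 6.69, 14.9 and 15.1 CPM, a wider range than any of the other 3 sets of 5, and the log2 fold change of secretome 6 to 10 against control 1 to 5 was 0.07 (SE 0.366).

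Mrpl38, a large subunit protein without a bacterial counterpart, was the other member without overlap in libraries 6 to 15. The control values were 30.4, 33.1, 27.8, 29.4 and 27.8 CPM and the secretome values 27.5, 23.4, 25.7, 21.2 and 26.4 CPM, all lower, as for 1.09% of genes. The log2 fold change was -0.25 (SE 0.098, adjusted p 0.473 in edgeR), and it was 0.18 (SE 0.147) in the remaining mice. Mrpl37 and Mrpl51, also without bacterial counterparts, gave -0.25 (SE 0.096) and -0.25 (SE 0.0999) in libraries 6 to 15, and 0.13 and 0.07 in the remaining mice.

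Secretome libraries 16 to 20 against control libraries 1 to 5 share no mouse with that comparison, but there the range and the treatment cannot be told apart. Again 0 members passed the false discovery rate in edgeR (0.0% of genes tested), with 4 lower (background 9.19%) and 4 higher (background 7.02%) at an unadjusted p under 0.05. The members' median was 0.03 against -0.04 for all genes, with 33 lower (54.6% of all genes) and 45 higher. Mrpl19 and Mrpl41 were the members without overlap. Mrpl19 was at 12.3, 9.88, 9.84, 11.9 and 11.96 CPM in control 1 to 5 and at 18.1, 14.3, 15.2, 16.7 and 17.7 in secretome 6 to 10, higher in all, as for 2.51% of genes, and its log2 fold change was 0.56 (SE 0.130) against 0.07 (SE 0.124) in libraries 6 to 15. Mrpl41, lower in all as for 2.34% of genes, was at -0.72 (SE 0.204) against -0.08 (SE 0.148), and Mrpl24 at -0.76 (SE 0.258) against -0.13 (SE 0.178). Mrps9 was higher in both sets, at 0.34 (SE 0.136) and 0.21 (SE 0.113), and Mrpl54 lower in both, at -0.55 (SE 0.210) and -0.21 (SE 0.137).

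The difference between the 2 comparisons passed the false discovery rate for 0 members in edgeR (8 of all genes, 0.0553%), with 2 members lower (background 5.59%) and 6 higher (background 5.51%) at an unadjusted p under 0.05. On average it was below 0 for 27 members, against 51.7% of all genes. The smallest p was that of Mrpl19 (difference 0.49, SE 0.169, adjusted p 0.260), followed by Mrps7 (0.40), Mrpl9 (0.54) and Mrpl38 (0.44). Mrps7 and Mrpl9, both conserved from bacteria, were below 0 in libraries 6 to 15 (-0.17 and -0.30) and above 0 in the other mice (0.23 and 0.24). The direction was the same in both sets for 48 of the 78 members (61.5%), 28 lower and 20 higher, against 57.1% of all genes. Across members the 2 sets of fold changes had a Spearman rho of 0.35, and across all genes tested of 0.18. These are descriptions across genes, which share libraries and scaling and are not independent.

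**Figure D4:**
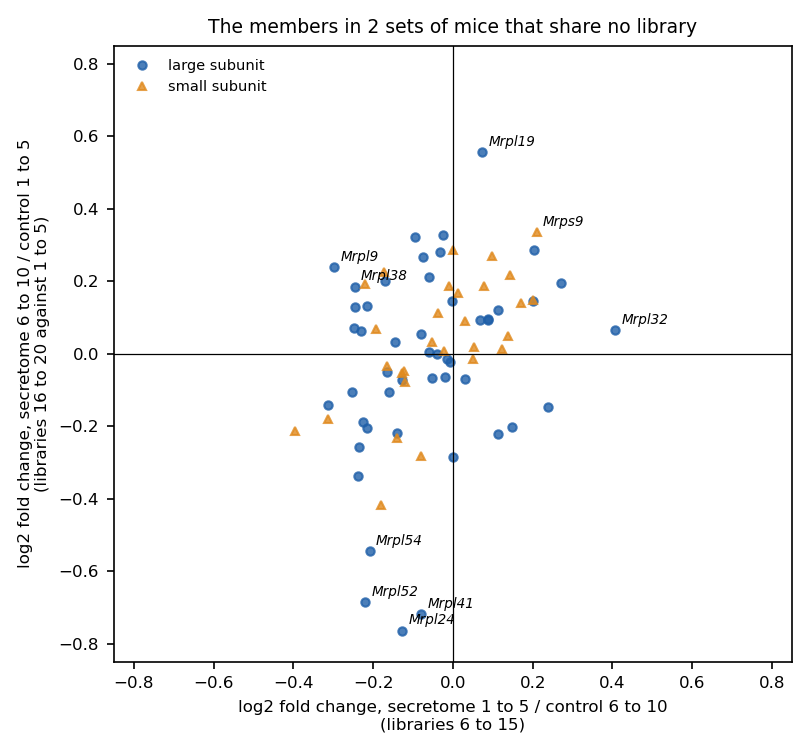
Log2 fold change of each member in libraries 6 to 15 (horizontal axis) and in libraries 16 to 20 against 1 to 5 (vertical axis), large subunit as circles and small subunit as triangles. Mrps9 lies above 0 and Mrpl54 below 0 on both axes, while Mrpl19, Mrpl41 and Mrpl24 lie near 0 on the horizontal axis and beyond 0.5 on the vertical axis.

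The log2 fold change of the members was related to their level per kb. Across the 78 members, Spearman's rho with the mean CPM per kb of exon was -0.49 with all mice, -0.51 in libraries 6 to 15 and -0.32 in the other mice. It was -0.44 in the large and -0.53 in the small subunit with all mice. Protein-coding genes as a whole went the other way, at 0.32, 0.07 and 0.39, and those within the members' range of levels were at 0.16, -0.01 and 0.25. With the length of the longest protein-coding transcript in place of the exon length, the members' values were -0.42, -0.40 and -0.29. With mean CPM and no length divisor they were weaker, at -0.28, -0.35 and -0.14. In that measure the large subunit stood at -0.16, -0.25 and -0.03 and the small subunit at -0.54, -0.53 and -0.33. Protein-coding genes as a whole stood there at 0.41, 0.16 and 0.45. The members' fold change had a rho of 0.36, 0.29 and 0.27 with exon length. The members share every library, so these are descriptions across genes with no test.

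In 3 sets of 26 by level per kb, the members of lowest level had a median log2 fold change of 0.08 with 8 lower and 18 higher. The middle set had a median of -0.02 with 15 and 11, and the highest set of -0.10 with 22 and 4. In libraries 6 to 15 the medians were 0.05, -0.06 and -0.14, with 23 of the 26 members of the highest set lower. Of all genes tested, 55.9% were lower with all mice and 52.0% in libraries 6 to 15. Of the 10 members at an unadjusted p under 0.05, the lowest set holds the 4 higher ones (Mrps9, Mrpl19, Mrpl47 and Mrps5) and Mrpl17, and the highest set holds the 5 others, all lower. With library totals alone the medians with all mice were -0.05, -0.16 and -0.24, so the sign of the lowest set flipped and the order stayed.

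GC content and length moved with the level per kb of the members, a measure that itself divides by exon length. Level per kb had a rho of 0.52 with GC content and of -0.68 with exon length over the 78 members. Mean CPM, with no length divisor, had a rho of 0.06 with GC content and of 0.13 with transcript length. The log2 fold change had a rho of -0.42 with GC content, close to the -0.44 of all protein-coding genes. With trends on GC content and transcript length removed from each library, the rho of fold change with level per kb was -0.22 with all mice and -0.29 in libraries 6 to 15. The 3 sets then had medians of 0.11, 0.12 and 0.01 with all mice. Without control replicate 2 the rho was -0.40 and the 3 sets were at 0.047, -0.00078 and -0.041.

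**Figure D5:**
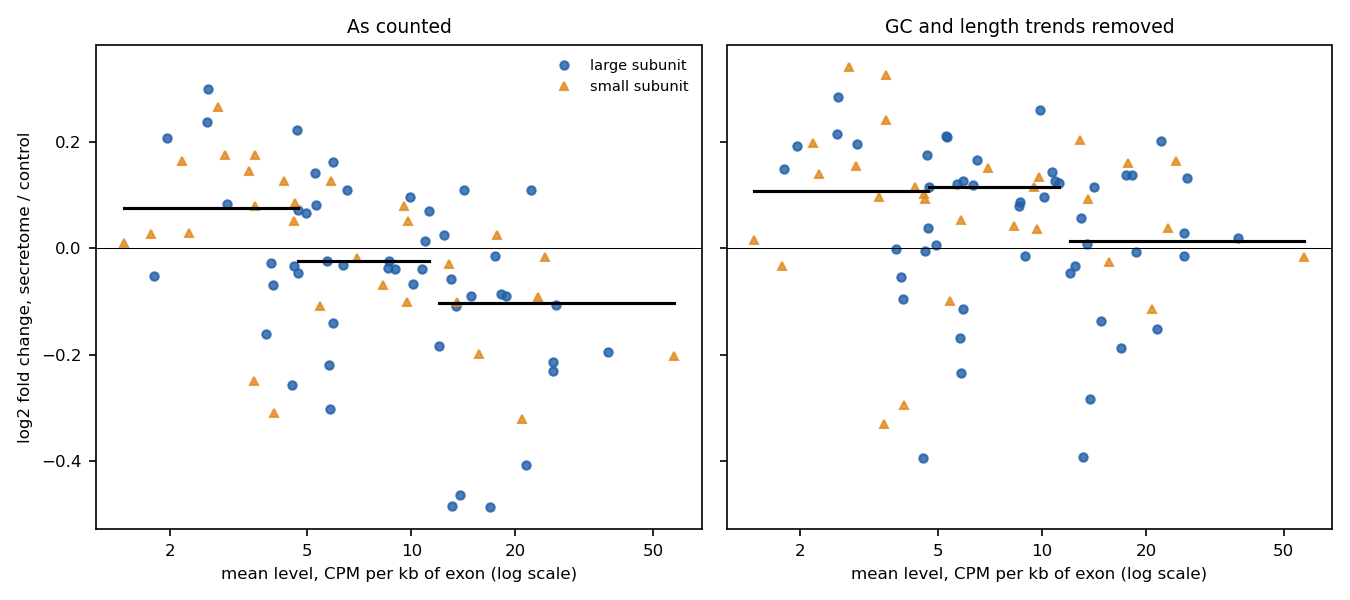
Log2 fold change of each member, secretome over control with all 20 libraries, against its mean CPM per kb of exon (log scale), as counted (left) and with GC content and transcript length trends removed (right), with horizontal bars at the median of each set of 26 by level. The medians run 0.08, -0.02 and -0.10 on the left and 0.11, 0.12 and 0.01 on the right, so the sign in the middle and highest sets flips.

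The relation with level per kb was also computed in single mice. The rho of a secretome mouse's difference from the control mean with level per kb ran from -0.58 to 0.22. These 10 values share 1 control mean, which includes control replicate 2, so they are not separate observations. The score of the highest set minus that of the lowest set, a mean log2 difference from the average of all mice, ran from -0.13 to 0.71 in control mice, with control replicate 2 at 0.71, and from -0.24 to 0.23 in secretome mice.

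The other genes of mitochondrial translation, in lists chosen for function, gave 0 calls at the false discovery rate in edgeR. Of the 5 subunits of the mitochondrial ribosome with other names, 4 were lower and 0 passed an unadjusted p of 0.05, with Gadd45gip1 at -0.25 (p 0.0513) and Ptcd3 at 0.16 (p 0.0937). Of 24 assembly and ribosomal RNA factors, 14 were lower (55.9% of all genes were) and 10 higher. At an unadjusted p under 0.05, 1 was lower (background 9.21%), the GTPase Mtg1 (-0.39, edgeR p 0.0184), and Malsu1 was at -0.23 (edgeR p 0.0546). In libraries 6 to 15, 19 of these 24 were lower (52.0% of all genes were), with a median of -0.14.

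The translation factors of the mitochondrion had a higher median than the ribosomal proteins they work with, with no test between the lists. Of the 13 tested (15 listed), 9 were higher and 4 lower with a median log2 fold change of 0.15, and 4 were higher (background 6.52%) and 1 lower (background 9.21%) at an unadjusted p under 0.05. In libraries 6 to 15 the median was 0.03, with 0 higher and 2 lower at that p (background 5.02% and 4.88%). Mtif2, the initiation factor that brings the initiator tRNA, was at 19.98 ± 1.76 CPM in control and 24.7 ± 2.72 in secretome mice (SD, n = 10), with a log2 fold change of 0.30 (SE 0.075, edgeR p 0.000483, adjusted p 0.109). In libraries 6 to 15 it was at 0.17 (SE 0.102). Mtif3 went the other way, at -0.26 (p 0.0262).

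Of the 20 mitochondrial aminoacyl-tRNA synthetases, which charge the tRNAs, 11 were lower and 9 higher, with Iars2, which charges the isoleucine tRNA, at 0.20. Of 12 genes for mitochondrial DNA expression, 5 were lower and 7 higher, with Lrpprc, which stabilizes mitochondrial messenger RNAs, at 0.29 (p 0.0184) and the transcription factor Tfam at 0.20 (p 0.0506). Both were near 0 in libraries 6 to 15, at 0.01 and 0.02.

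The RNAs of the mitochondrial genome did not keep 1 direction between the sets of mice. Of the 13 messenger RNAs, 8 were lower with all mice, all 13 were higher in libraries 6 to 15 with a median of 0.48, and 12 of 13 were lower in libraries 16 to 20 against 1 to 5 with a median of -0.73. The 2 ribosomal RNAs that the members bind, mt-Rnr1 and mt-Rnr2, were at -0.48 and -0.11 with all mice, but ribosomal RNA was depleted before sequencing. The 80 tested proteins of the cytosolic ribosome had a median of -0.19, with 70 lower and 29 of them at an unadjusted p under 0.05 (background 9.21%), against the members' median of -0.03. Their median in libraries 6 to 15 was -0.16, with 66 lower and 6 of them at that p (background 4.88%).

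Markers of other cells differed between the groups or between the ranges of library number. All 6 macrophage markers were lower on average in secretome mice, 4 of them at an unadjusted p under 0.05 (background 9.21%). Their summed level was 38.0 to 118 CPM in control and 29.4 to 93.5 in secretome mice. In libraries 6 to 15 these 6 were again all lower, 4 at an unadjusted p under 0.05 (background 4.88%). With all mice, 4 of 5 endothelial markers were lower, 4 of 4 Schwann cell markers and 3 of 5 erythroid markers, with 0 at that p. Of all genes, 55.9% were lower on average. All 5 fibro-adipogenic progenitor markers and all 4 adipocyte markers were lower on average, 0 of them at an unadjusted p under 0.05, with sums of 171 to 934 and 259 to 572 CPM and of 18.5 to 119 and 9.24 to 50.5 CPM. The progenitor sums followed the ranges of library number, at 653 to 934 CPM in control 1 to 5, 171 to 417 in control 6 to 10, 259 to 367 in secretome 1 to 5 and 434 to 572 in secretome 6 to 10. Of the progenitor markers, 3 were lower and 2 higher in libraries 6 to 15, among them Lum at 0.60 (p 0.0089, edgeR). Neutrophil markers (4 of 5 tested) summed to 1.36 to 96.1 CPM in control and 1.46 to 106 in secretome mice. With all mice 3 of the 4 were higher (44.1% of all genes were), 0 at an unadjusted p under 0.05, with a median log2 fold change of 1.12. In libraries 6 to 15, 2 were lower and 2 higher. No marker was at 0 in every library, and the part of these cells in the members' values was not tested.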

How the data were processed

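The deposited table held whole-number read counts per gene for the 20 libraries, with no normalization by the authors. According to the submitters' processing notes, reads were trimmed with cutadapt 1.16, aligned with STAR 2.7.9a to GRCm39 and counted with featureCounts 1.6.3, and the authors tested the counts with DESeq2 1.34.0. Symbols, exon lengths and GC content were taken from GENCODE M21 (GRCm38), so no coordinates of that build were set against the files. Genes were filtered with filterByExpr, scaled with TMM and tested with the robust quasi-likelihood F-test of edgeR 4.0.16 (limma 3.58.1, R 4.3.3) on treatment alone, with Benjamini-Hochberg adjustment over all 14471 genes. Standard errors were derived from each estimate and its F statistic. CPM values are counts scaled to a common, TMM-adjusted library size, without a prior count. DESeq2 1.42.0, voom, other scalings and filters, splines with 5 degrees of freedom on GC content and length, a term for library range, and fits without each library were alternatives.

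The members and lists were chosen with earlier results of these data known. Named members were the 8 with the smallest p, the 3 highest and 2 lowest per subunit in level per kb, the 4 with the smallest p in libraries 6 to 15 and in the difference of the 2 comparisons, 14 of known role, and the 2 genes of smallest p in each list. One of the listed genes is not reported here. The labels do not say that their numbers pair the mice. The p-values set the treatment difference against the spread between these mice, which with all 20 libraries includes the library ranges. On simulated counts for the comparison of all 20 libraries (14471 genes), edgeR recovered 170 of 200 genes changed 2-fold with 6 unchanged genes called. For libraries 6 to 15 it recovered 143 of 200 with 6 unchanged genes called. A 2-fold change is larger than that of any member in these comparisons, and the simulated counts held no difference between library ranges. The recovery of differences of the members' size was not simulated.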

Additional observations from a re-analysis of the deposited data

Results flagged for a closer look

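Of 80 groups of 10 mice examined for a single mouse apart from the rest, 7 were marked, where chance marks about 4.0, so the marks are near what chance gives. The values are on the log2 CPM scale. Control replicate 2 was the highest control for Mrpl44 (4.33, the next 3.90) and for Mrps23 (5.86, the next 5.39), and the lowest for Mrpl47 (2.77, the next 3.22). Control replicate 9 was the lowest control for Mrpl3 (4.51, the next 4.82). In the secretome group, replicate 9 was the highest for Mrpl38 (5.25, the next 4.84) and for Mrpl58 (4.69, the next 4.25), and replicate 2 was the lowest for Mrps23 (4.71, the next 5.07). Control replicate 2 also had the lowest total and the lowest Ttn share, and the part of these in its values was not tested. Without it, the log2 fold change of Mrpl47 was 0.18, of Mrps23 -0.00067 and of Mrpl44 0.03.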

How the results depend on the processing

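No member passed the 5% false discovery rate in any of 30 fits of all 20 libraries (smallest adjusted p 0.0617, Mrps9, DESeq2). None passed in 16 fits of libraries 6 to 15 (0.182, Mrpl34, voom). Of all genes, DESeq2 called 213 with all 20 libraries and 37 in libraries 6 to 15, and voom 3 in each. With a replicate block, which the labels do not call for, 3 members were lower (background 6.99%) and 4 higher (background 7.22%) at an unadjusted p under 0.05. The correlations of same-numbered mice ran from -0.24 to 0.221, 2 of 10 over 0.1, so the numbers were not taken as pairs. The count lower, 6 with all mice (background 9.21%), was 3 with DESeq2 (background 9.79%) and 15 with library totals (background 19.4%). It was 2 with GC and length trends removed (background 5.77%) and 3 with a term for library range (background 3.34%). The count higher, 4 (background 6.52%), was 1 with library totals (background 1.44%) and 2 with voom (background 6.39%). With the range term it was 1 (background 2.43%). With library totals the median log2 fold changes of all, large and small subunit members were -0.16, -0.17 and -0.10, with GC and length trends removed they were 0.093, 0.080 and 0.10, and with the range term the small subunit was at -0.035. The rho of fold change with level per kb was -0.22 with GC and length trends removed. In libraries 6 to 15, the count lower, 5 (background 4.88%), was 3 with library totals (background 4.64%) and 8 with voom (background 6.43%). With GC and length trends removed it was 3 (background 2.81%), and the rho was -0.29. The count higher there, 2 (background 5.02%), was 1 with voom (background 8.04%). The causes were not tested.

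Leaving out 1 mouse at a time gave 3 to 10 members lower (background 6.46% to 10.7%) and 2 to 5 higher (background 4.84% to 7.55%) with all mice. In libraries 6 to 15 it gave 0 to 16 lower (background 3.52% to 7.29%) and 1 to 4 higher (background 3.24% to 7.44%). The large subunit median there ran from -0.17 (without secretome replicate 3) to -0.050. The median of the members ran from -0.06 to 0.0028 with all mice and from -0.10 to -0.04 in libraries 6 to 15.

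Several named members changed sign, among them Mrpl12 and Mrpl2, which were at -0.20 and -0.21 in the main fit. With GC and length trends removed, the values were 0.0077 for Mrpl10, 0.020 for Mrpl12, 0.13 for Mrpl14, 0.029 for Mrpl2, 0.096 for Mrpl37, 0.14 for Mrpl38, 0.080 for Mrpl44, 0.15 for Mrpl53, 0.093 for Mrps12, 0.15 for Mrps18a, 0.037 for Mrps18b, 0.038 for Mrps23, -0.034 for Mrps25 and 0.16 for Mrps28, and 0.0034 for Mrpl41 in libraries 6 to 15. With library totals they were -0.058 for Mrpl3, -0.050 for Mrps18c, -0.098 for Mrps25, -0.11 for Mrps35 and -0.10 for Mrps7. With voom they were 0.048 for Mrpl53 and -0.052 for Mrps7, with the range term -0.050 for Mrps25 and -0.18 for Mrps7, with DESeq2 0.0024 for Mrps28, and without a filter 0.00040 for Mrps18a and 0.0025 for Mrps28. Leaving out 1 mouse, the ranges that crossed 0 were -0.29 to 0.0014 for Mrpl12, -0.092 to 0.028 for Mrpl44, -0.16 to 0.072 for Mrpl53, -0.087 to 0.043 for Mrpl9, -0.072 to 0.014 for Mrps18a, -0.0015 to 0.058 for Mrps25, -0.12 to 0.043 for Mrps28, -0.014 to 0.041 for Mrps35 and -0.043 to 0.053 for Mrps7, and in libraries 6 to 15 -0.26 to 0.034 for Mrpl24 and -0.17 to 0.00067 for Mrpl41.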
